A study of Mus musculus with 2 samples.

Results

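Macrophages of mouse epididymal fat that carried hashtags A0301, A0302 or A0303 were set against macrophages that carried hashtags A0308, A0309 or A0310. All cells came from 1 pool. The stromal vascular fraction, which holds the cells of fat other than adipocytes, was released with Liberase from male C57BL/6J mice of wild-type genotype (WT). Per the labels the diets were standard (SD, 16 weeks) and high-fat (HFD, 8 weeks and 16 weeks), and ages and numbers of mice are not known here. Each suspension was stained with a hashtag antibody, which marks cells with a DNA barcode, at 2.5 µg/ml; of the pool, 20000 cells were run on a BD Rhapsody and amplified by TAS-Seq. Diets and mice are not tied to hashtags in the labels, so the 2 sets follow hashtag numbers alone and no diet is named for either. Every p-value below sets the difference between the sets against the spread among the 3 hashtags of a set, which share 1 pool and 1 run and may or may not be separate animals.

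A cell was taken as a macrophage when mitochondrial reads made up at most 25% of its reads, at least 3 of the 6 genes Adgre1, C1qa, C1qb, C1qc, Csf1r and Mrc1 reached 50 CPM (counts of a gene scaled to the same total in every cell or hashtag), and the summed level of Lum, Dpt, Cdh5 and Cd3g, genes of fibroblasts, endothelial cells and T cells, stayed under 300 CPM. Of 7858 cells with 1 of the 6 hashtags, 6974 passed the mitochondrial limit and 1959 were macrophages, 170 in hashtags A0301-A0303 and 1789 in hashtags A0308-A0310. All 9 hashtags together held 11750 cells and 3169 macrophages. At the edge of the marker rule, 42 of the 170 macrophages of hashtags A0301-A0303 and 151 of the 1789 of hashtags A0308-A0310 had exactly 3 markers. Such edge cells were thus a larger part of the macrophages of hashtags A0301-A0303. In the same sets, 142 and 219 kept cells had exactly 2 markers. All 6 markers were reached in 53 of the 170 macrophages of hashtags A0301-A0303 and in 1099 of the 1789 of hashtags A0308-A0310.

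Macrophages are the main phagocytes of fat. In lean mice resident cells scavenge proteins and lie along vessels, and many of them carry markers of alternative activation. In obesity monocytes enter the tissue, gather around dying adipocytes and take up lipid, and cells with the lipid receptor Trem2, lipid-handling genes and many lysosomal enzymes, called lipid-associated macrophages, become frequent.

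The label was checked on the marker genes, which the rule used and which are therefore a description. The 6 markers summed to 5068, 6779 and 6289 CPM in hashtags A0301, A0302 and A0303, against 8108, 7933 and 4288 CPM in hashtags A0308, A0309 and A0310, with overlap. Csf1r, the receptor for the macrophage growth factor, was at 682, 678 and 631 CPM in hashtags A0301-A0303, against 735, 763 and 606 CPM in hashtags A0308-A0310. Adgre1, which encodes F4/80, was at 330, 359 and 455 CPM in hashtags A0301-A0303, below the 712, 719 and 537 CPM in hashtags A0308-A0310. The complement gene C1qa ranged from 915 to 1620 CPM in hashtags A0301-A0303 and from 621 to 1655 CPM in hashtags A0308-A0310, and the mannose receptor gene Mrc1 was at 713, 761 and 785 CPM in hashtags A0301-A0303, against 610, 625 and 518 CPM in hashtags A0308-A0310.

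Some cells went against their hashtag call. In 56 of 170 macrophages of hashtags A0301-A0303 (32.9%) and in 267 of 1789 macrophages of hashtags A0308-A0310 (14.9%), under 90% of the hashtag counts came from the hashtag of the call. These mixed-hashtag cells held 42.0% of the macrophage reads of hashtags A0301-A0303 and 11.8% of those of hashtags A0308-A0310. In 31 of the 56 mixed cells of hashtags A0301-A0303 the strongest other hashtag was one of A0308-A0310, and in 24 the called hashtag was not the strongest. Results are given with all macrophages and, for genes and lists whose calls differed most, also without mixed-hashtag cells.

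The sets also differed in depth. The macrophages held 2961321 to 4031971 reads per hashtag in hashtags A0301-A0303 and 51644415 to 64373121 in hashtags A0308-A0310, and their median reads per cell were 37944.5 to 50175 in hashtags A0301-A0303 and 74469 to 99504 in hashtags A0308-A0310. The 5 deepest macrophages held 18.6% to 31.2% of the reads of a hashtag in A0301-A0303 and 3.42% to 4.38% in A0308-A0310. Median mitochondrial shares overlapped, at 4.37% to 4.58% in hashtags A0301-A0303 and 4.47% to 4.75% in hashtags A0308-A0310. Over the 10281 genes tested, the root mean square log2 difference was 0.911 to 0.954 between hashtags within A0301-A0303 and 0.813 to 1.01 between hashtags of different sets, so that hashtags A0301, A0302 and A0303 lay as far from each other as from the other set. It was 0.332 to 0.535 within hashtags A0308-A0310.

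Macrophages were a small share of the cells of hashtags A0301-A0303 and a large share of those of hashtags A0308-A0310. They made up 6.20% of the kept cells of hashtag A0301 (51 of 823; 95% exact binomial interval 4.65 to 8.07%), 5.39% of hashtag A0302 (52 of 964; 4.05 to 7.01%) and 6.33% of hashtag A0303 (67 of 1059; 4.94 to 7.97%). In the other set they made up 39.2% of hashtag A0308 (563 of 1438; 36.6 to 41.7%), 46.7% of hashtag A0309 (688 of 1472; 44.2 to 49.3%) and 44.2% of hashtag A0310 (538 of 1218; 41.4 to 47.0%). The means were 5.97 ± 0.505% in hashtags A0301-A0303 and 43.4 ± 3.86% in hashtags A0308-A0310 (SD, n = 3 each), without overlap, a difference of -37.4 percentage points. The 2-sided exact permutation p was 0.1, the smallest that 3 against 3 allows. Without mixed-hashtag cells the shares were 10.8%, 10.1% and 12.9% in hashtags A0301, A0302 and A0303, against 55.1%, 61.9% and 57.6% in hashtags A0308, A0309 and A0310. That filter kept 316 of 823, 335 of 964 and 356 of 1059 cells in hashtags A0301, A0302 and A0303. In hashtags A0308, A0309 and A0310 it kept 819 of 1438, 956 of 1472 and 831 of 1218. Most kept cells of hashtags A0301-A0303 were thus left out, and these shares describe the remainder. Intervals cover counting error only, and the share depends on how many cells of every other type were released and called.

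**Figure D1:**
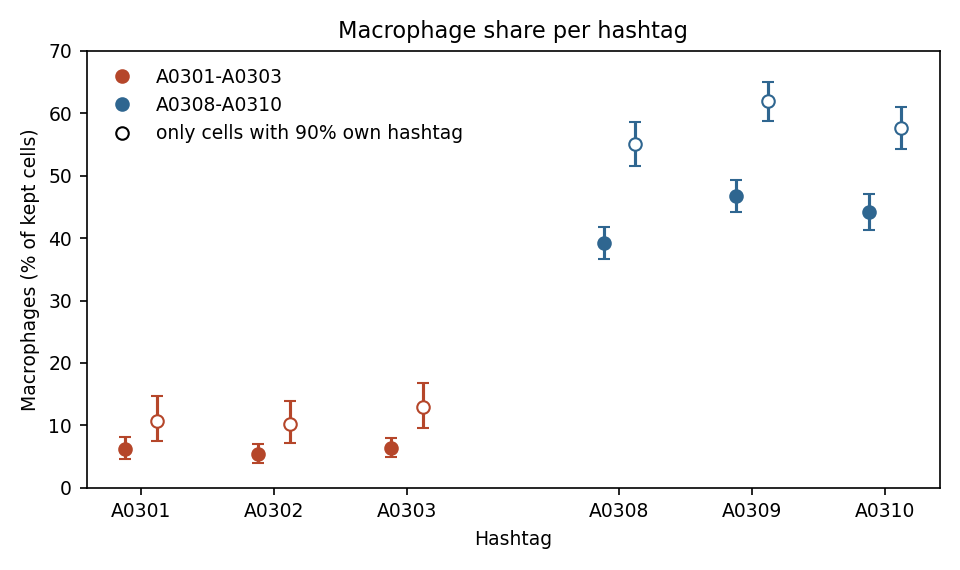
Macrophages as a percentage of kept cells (vertical axis) in each hashtag (horizontal axis); filled points are all kept cells, open points cells with at least 90% of hashtag counts from their own hashtag, bars 95% exact binomial intervals. The 3 hashtags A0301-A0303 lie at 5.39% to 6.33% and the 3 hashtags A0308-A0310 at 39.2% to 46.7%, with both sets higher among cells with an unmixed hashtag.

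Macrophage reads were summed per hashtag and tested over all genes with edgeR's quasi-likelihood test and Benjamini-Hochberg adjustment; a gene is called at an adjusted p under 0.05. Of 10281 genes, 189 (1.84%) were higher and 50 (0.486%) lower in macrophages of hashtags A0301-A0303 than in those of hashtags A0308-A0310. At an unadjusted edgeR p under 0.05, 960 lay higher and 767 lower. Without overlap between the 6 hashtags, 1179 genes (11.5%) were higher and 1412 (13.7%) lower in hashtags A0301-A0303. Without mixed-hashtag cells, 283 of 10157 genes (2.79%) were higher and 163 (1.6%) lower, of which 159 and 29 were also called with all macrophages. The call counts changed with the marker rule and when single hashtags were left out. Those fits also held fewer cells or hashtags, and the cause of the change was not tested. With at least 4 of the 6 markers, 43 genes were higher and 0 lower in edgeR, and 522 lay lower at an unadjusted p under 0.05. Without hashtag A0309, 26 were higher and 0 lower in edgeR, and 384 lay lower at an unadjusted p under 0.05. DESeq2, which was run on all macrophages of the 6 hashtags only, called 565 higher and 344 lower.

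Genes of monocytes and recently recruited macrophages were higher in hashtags A0301-A0303. Of 14 genes tested on this list, 7 were called higher and 0 lower, and the median log2 fold change was 2.03, against 0.0027 over all genes. The shares called over all genes were 1.84% higher and 0.486% lower. Fn1, the gene of the matrix protein fibronectin, was at 2277, 2432 and 2089 CPM in hashtags A0301, A0302 and A0303, against 135, 249 and 230 CPM in hashtags A0308, A0309 and A0310. The sets did not overlap and the log2 fold change was 3.49 ± 0.25 (SE; edgeR adjusted p = 0.00206). Ccr2, the chemokine receptor that brings monocytes into tissue, was at 472, 463 and 606 CPM in hashtags A0301-A0303, against 76.6, 50.0 and 62.8 CPM in hashtags A0308-A0310, again without overlap (log2 fold change 3.06 ± 0.21, edgeR adjusted p = 0.00206). Lsp1, a leukocyte cytoskeletal protein gene, followed the same order at 769, 855 and 849 CPM in hashtags A0301-A0303, against 91.8, 62.4 and 117 CPM in hashtags A0308-A0310. Plbd1, Ifitm3, Ear2 and Retnla were the other called members. Other members of this list were not called: Ly6c2, a classical monocyte gene, was at 6.53, 33.4 and 3.22 CPM in hashtags A0301-A0303 and at 29.5, 1.40 and 0.917 CPM in hashtags A0308-A0310, with overlap, and S100a4, at 936, 889 and 929 CPM in hashtags A0301-A0303 and 522, 687 and 1373 CPM in hashtags A0308-A0310, overlapped too. Vcan, Chil3 and Hp were among the members that did not pass the filter on low values. Of these Vcan, which encodes the matrix proteoglycan versican, was at 16.2, 8.10 and 4.96 CPM in hashtags A0301-A0303, against 2.61, 1.15 and 0.699 CPM in hashtags A0308-A0310, without overlap and untested. Leaving out 1 hashtag gave 5 to 7 higher calls on this list, and 5 of 15 genes were called without macrophages that held a dendritic cell gene.

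The gene with the smallest adjusted p among those named was Fcrls, which encodes an Fc receptor-like scavenger protein. It was at 539, 503 and 564 CPM in hashtags A0301-A0303, against 42.4, 43.2 and 31.8 CPM in hashtags A0308-A0310, a log2 fold change of 3.81 ± 0.15 (edgeR adjusted p = 0.000243). After each macrophage was thinned to 5000 reads, 53.5% of macrophages of hashtags A0301-A0303 and 11.7% of those of hashtags A0308-A0310 had an Fcrls read. The same share was 1.12% and 1.20% in 1344 and 1001 cells of the same sets that carried fibroblast, endothelial or T cell genes and no macrophage marker. Ccr2 gave 47.6% of thinned macrophages in hashtags A0301-A0303 and 11.5% in hashtags A0308-A0310, against 3.50% and 3.40% of those other cells. Fn1 is also a gene of the other cells, of which 66.8% and 54.9% had a read, against 51.2% of macrophages in hashtags A0301-A0303 and 18.2% in hashtags A0308-A0310. Median reads before thinning were 47513 and 80930 in the macrophages and 38714.5 and 35438 in the other cells. Unthinned, at 50 CPM, the macrophage shares of hashtags A0301-A0303 and A0308-A0310 were 58.8% and 17.1% for Fcrls, 55.9% and 14.2% for Ccr2, and 52.4% and 21.9% for Fn1.

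Genes of alternative activation, the state that interleukin-4 induces, were higher in hashtags A0301-A0303. Of 14 tested, 5 were called higher and 0 lower, with a median log2 fold change of 1.24. The shares called over all genes were 1.84% higher and 0.486% lower. Retnla, which encodes the secreted protein RELM-alpha, was at 11587, 19860 and 20285 CPM in hashtags A0301, A0302 and A0303, against 789, 666 and 63.8 CPM in hashtags A0308, A0309 and A0310 (log2 fold change 5.14 ± 0.87, edgeR adjusted p = 0.0351). The sets did not overlap, and 60.6% of thinned macrophages of hashtags A0301-A0303 had a Retnla read, against 6.15% of those of hashtags A0308-A0310. The lowest value of Retnla in any cell is 57 reads, so a 0 can hide up to that amount. Mgl2, a C-type lectin gene, was at 387, 284 and 188 CPM in hashtags A0301-A0303, against 21.96, 12.7 and 12.2 CPM in hashtags A0308-A0310 (4.22 ± 0.34, edgeR adjusted p = 0.00267). Ccl24, a chemokine for eosinophils, was at 118, 473 and 250 CPM in hashtags A0301-A0303, against 9.33, 3.65 and 0.777 CPM in hashtags A0308-A0310. In hashtag A0302, 1 cell held 72.9% of its Ccl24 reads. Ear2, an eosinophil-associated ribonuclease, and Socs2, a brake on cytokine signalling, were the other called members. Retnla and Ear2 are also on the monocyte list and count in both. Arg1, with 65.9, 222 and 19.3 CPM in hashtags A0301-A0303 and 18.1, 18.8 and 23.1 CPM in hashtags A0308-A0310, overlapped, as did Clec10a, the close relative of Mgl2 (155, 138 and 150 CPM in hashtags A0301-A0303, against 185, 110 and 113 CPM in hashtags A0308-A0310). Leaving out 1 hashtag gave 2 to 4 higher calls on this list.

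**Figure D2:**
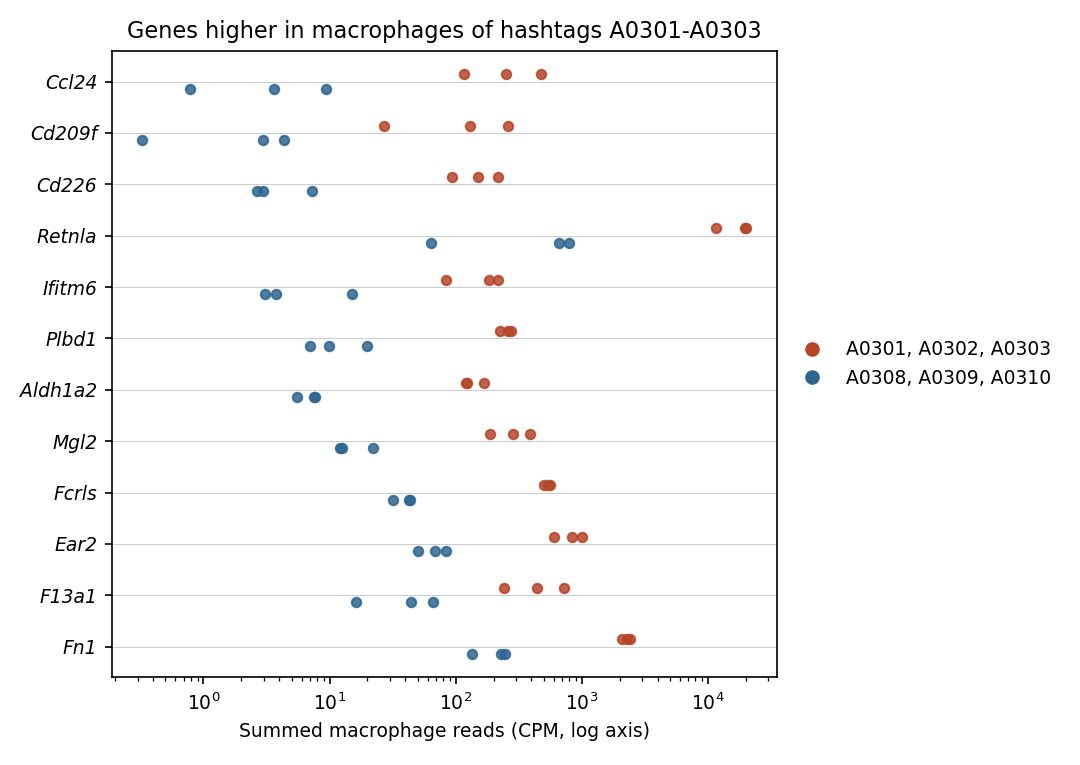
Summed macrophage reads of the 12 genes with the highest fold change in hashtags A0301-A0303 among called genes with at least 100 CPM in hashtags A0301-A0303 (CPM, logarithmic horizontal axis), with 1 point per hashtag, red for A0301, A0302 and A0303 and blue for A0308, A0309 and A0310. For each of the 12 genes the red points lie to the right of the blue ones, as for Fcrls at 503 to 564 CPM against 31.8 to 43.2 CPM.

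Resident and perivascular macrophage genes split. Of 19 tested, 4 were called higher in hashtags A0301-A0303 and 0 lower, and the median log2 fold change was 0.72. The shares called over all genes were 1.84% higher and 0.486% lower. F13a1, which encodes coagulation factor XIII, was at 240, 441 and 729 CPM in hashtags A0301-A0303, against 65.7, 44.7 and 16.3 CPM in hashtags A0308-A0310 (3.53 ± 0.59, edgeR adjusted p = 0.0346). The lectin genes Cd209f (27.3, 129 and 260 CPM in hashtags A0301-A0303, against 4.38, 2.94 and 0.326 CPM in hashtags A0308-A0310) and Cd209d were called with it, as was Timd4, a receptor for dying cells, at 10.2, 16.5 and 11.4 CPM in hashtags A0301-A0303, against 0.813, 0.173 and 0.155 CPM in hashtags A0308-A0310. Timd4 rests on few cells, and all of its reads in hashtag A0301 came from 1 cell. Timd4 and Cd209f stayed under 5 CPM in every hashtag of A0308-A0310 and passed the filter on low values through A0301-A0303 alone. Their direction was thus fixed by the filter. Lyve1, the hyaluronan receptor of perivascular macrophages, was at 41.5, 193 and 400 CPM in hashtags A0301-A0303, against 7.26, 11.95 and 1.63 CPM in hashtags A0308-A0310. The sets did not overlap, but the edgeR adjusted p was 0.0536 for a log2 fold change of 4.99 ± 1.00, and 0.0335 without mixed-hashtag cells. Hashtag A0301 was the lowest of its set for Lyve1, Cd209f, Cd209d and F13a1. Other members overlapped: Folr2 was at 323, 445 and 592 CPM in hashtags A0301-A0303 and 727, 819 and 310.4 CPM in hashtags A0308-A0310, and Pf4 at 527, 863 and 923 CPM in hashtags A0301-A0303 and 1009.9, 1033 and 280 CPM in hashtags A0308-A0310. The higher calls of this list numbered 0 when any 1 of hashtags A0302, A0303, A0309 and A0310 was left out, 2 without A0308 and 6 without A0301. Without mixed-hashtag cells 8 of 19 were called higher and 1 lower, with a median of 0.61, against 2.79% higher and 1.6% lower over all genes. The Cd209, Ear and Mgl2 genes have close copies, among which reads may be split.

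Of 8 MHC class II genes tested, which serve antigen presentation to T cells, 2 were called higher in hashtags A0301-A0303 and 0 lower, with a median log2 fold change of 1.13. The shares called over all genes were 1.84% higher and 0.486% lower. H2-DMa, a chain of the peptide loading factor, was at 603, 565 and 571 CPM in hashtags A0301-A0303, against 284, 153 and 116 CPM in hashtags A0308-A0310 (1.69 ± 0.29, edgeR adjusted p = 0.0367). H2-DMb2, its partner chain, was at 82.7, 68.9 and 63.2 CPM in hashtags A0301-A0303, against 12.1, 6.68 and 4.58 CPM in hashtags A0308-A0310 (3.24 ± 0.36, edgeR adjusted p = 0.00975). Cd74, the invariant chain, was not called: 10039, 12253 and 9266 CPM in hashtags A0301-A0303, against 7546, 4634 and 2533 CPM in hashtags A0308-A0310, with an edgeR adjusted p of 0.142. Without hashtag A0309 no class II gene was called. Without mixed-hashtag cells 3 of 8 were called higher, with a median of 1.59, against 2.79% over all genes. Within A0308-A0310 the class II genes were highest in hashtag A0308 and lowest in hashtag A0310.

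Dendritic cells also express class II genes, and 2 of their markers, Cd209a and Batf3, moved with the higher genes. The 7 dendritic cell markers summed to 162, 231 and 164 CPM in hashtags A0301-A0303, against 54.4, 37.1 and 30.4 CPM in hashtags A0308-A0310, and none of the 7 was at 0 in all hashtags. Most of the sums in hashtags A0301-A0303 came from Cd209a and Batf3. Flt3, Zbtb46, Clec9a, Xcr1 and Ccr7 did not pass the filter on low values. These overlapped between the sets, at no more than 7.32 CPM in any hashtag. Both members that passed the filter were called higher: Cd209a at 64.5, 108 and 53.1 CPM in hashtags A0301-A0303, against 1.30, 1.95 and 1.15 CPM in hashtags A0308-A0310, and Batf3 at 89.2, 113 and 103 CPM in hashtags A0301-A0303, against 37.1, 28.8 and 25.1 CPM in hashtags A0308-A0310. Cd209a passed the filter through hashtags A0301-A0303 alone, so the filter fixed its direction and its call is a description. At least 1 dendritic cell gene reached 50 CPM in 25 of 51, 25 of 52 and 31 of 67 macrophages of hashtags A0301, A0302 and A0303, against 148 of 563, 130 of 688 and 95 of 538 in hashtags A0308, A0309 and A0310. When these cells were left out, 18 of 10184 genes were called higher and 1 lower. Fn1, Fcrls, Plbd1, Mgl2, Ear2, Aldh1a2, Cd226, Cfp and H2-DMb2 were the 9 named genes still called, and Retnla had a log2 fold change of 5.13 with an edgeR adjusted p of 0.15. Of the other list members given above, Ccr2 (2.84, edgeR adjusted p = 0.0338) and Lsp1 (2.84, 0.0338) stayed called. On the lists, 2 of 14 alternative activation genes and 1 of 9 class II genes were then called higher, 0 of 16 resident genes were called, and 0 of 20 lipid-associated and 0 of 34 lysosome genes were called lower. The median log2 fold changes were then 1.13 for class II, 0.96 for alternative activation, 0.21 for resident, -0.69 for lipid-associated and -0.38 for lysosome genes, and H2-DMa was at 1.71 (edgeR adjusted p = 0.124), so that H2-DMa lost its call at a fold change of about the same size. How far dendritic cells take part in the remaining differences was not tested.

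Inflammatory cytokine genes gave 0 calls by edgeR in 15 tested, with a median log2 fold change of 0.38. At an unadjusted edgeR p under 0.05, 7 were higher and 2 lower, and DESeq2 called 3 higher. The same counts over all 10281 genes were 960 higher and 767 lower, and 565 called higher by DESeq2. Il1b was at 58.2, 344 and 55.1 CPM in hashtags A0301-A0303, against 52.8, 23.4 and 11.7 CPM in hashtags A0308-A0310 (edgeR adjusted p = 0.208), and Tnf, at 43.7, 44.6 and 92.0 CPM in hashtags A0301-A0303 and 120, 110 and 58.3 CPM in hashtags A0308-A0310, overlapped. Clec4e, the Mincle receptor for dying cells and glycolipids, was at 47.4, 79.4 and 33.0 CPM in hashtags A0301-A0303, against 26.7, 14.6 and 15.3 CPM in hashtags A0308-A0310 (1.52 ± 0.37). The sets did not overlap, but Clec4e was not called at an edgeR adjusted p of 0.0956. Of 16 chemokine genes, Ccl7 and Ccl24 were called higher and the neutrophil attractant Cxcl1 lower, against 1.84% higher and 0.486% lower over all genes. Cxcl1 was at 336, 231 and 288 CPM in hashtags A0301-A0303, against 545, 655 and 476 CPM in hashtags A0308-A0310. Of 20 interferon-induced genes 13 passed the filter on low values. Of these 0 were called by edgeR or DESeq2, and 0 had an unadjusted edgeR p under 0.05. The list varied within the sets, summing to 570, 1013 and 609 CPM in hashtags A0301-A0303, against 1611, 657 and 255 CPM in hashtags A0308-A0310. Leaving out hashtag A0308 moved its median log2 fold change from -0.20 to 0.98, with 1 gene called higher.

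Few genes that act on matrix and growth were called. The shares called over all genes were 1.84% higher and 0.486% lower, and 2.79% and 1.6% without mixed-hashtag cells. Among 15 matrix protease genes, Mmp9, a gelatinase, was the 1 called, at 31.0, 45.9 and 43.4 CPM in hashtags A0301-A0303, against 0.755, 0.157 and 0.482 CPM in hashtags A0308-A0310 (6.46 ± 0.60, edgeR adjusted p = 0.00394). Mmp9 passed the filter on low values through hashtags A0301-A0303 alone, so its direction was fixed by the filter. Without mixed-hashtag cells 1 protease gene was called higher and 2 lower, and the median was -0.75, against -0.048 with all macrophages. Mmp12, the macrophage elastase, was at 1727, 719 and 1864 CPM in hashtags A0301-A0303 and at 685, 1288 and 6285 CPM in hashtags A0308-A0310. The highest and the lowest Mmp12 value both fell in hashtags A0308-A0310 and its edgeR adjusted p was 0.632. Of 22 growth factor genes, Fn1 and Tgfbi were higher, 6 lay higher and 7 lower without overlap, and DESeq2 called 4 higher and 4 lower. Among all genes tested, 11.5% lay higher and 13.7% lower without overlap. Tgfb1, the fibrosis-promoting growth factor, was at 145, 187 and 184 CPM in hashtags A0301-A0303 and 177, 160 and 146 CPM in hashtags A0308-A0310, with overlap and an edgeR adjusted p of 0.739. Of 17 complement genes, C2, C3 and Cfp were higher and C3ar1 was lower; without mixed-hashtag cells 1 of 16 was called higher and 1 lower. Cfp, which encodes properdin, was at 639, 944 and 833 CPM in hashtags A0301-A0303, against 245, 186 and 213 CPM in hashtags A0308-A0310 (1.94 ± 0.18, edgeR adjusted p = 0.00368).

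Genes of lipid-associated macrophages were lower in hashtags A0301-A0303. Of 20 tested, 5 were called lower and 0 higher, the median log2 fold change was -0.92, and 15 had every hashtag of A0301-A0303 below every hashtag of A0308-A0310. Among all genes tested, 0.486% were called lower and 13.7% lay lower without overlap. Trem2 was at 817, 519 and 746 CPM in hashtags A0301, A0302 and A0303, against 1376, 1673 and 1384 CPM in hashtags A0308, A0309 and A0310, without overlap (-1.06 ± 0.19, edgeR adjusted p = 0.0374). In macrophages thinned to 5000 reads, Trem2 was read in 44.1% of cells of hashtags A0301-A0303 and in 91.3% of those of hashtags A0308-A0310, against 11.5% and 14.3% of the cells with no macrophage marker. Unthinned, 54.7% and 95.2% of the macrophages reached 50 CPM. Atp6v0d2, a subunit of the proton pump that acidifies lysosomes, was at 477, 417 and 401 CPM in hashtags A0301-A0303, against 800, 1076 and 922 CPM in hashtags A0308-A0310 (-1.09 ± 0.14, edgeR adjusted p = 0.0138). Ctsb, Ctsl and the tetraspanin gene Cd63 were the other called members. The number of calls fell when single hashtags were left out: leaving out 1 gave 0 or 1 lower calls, with medians of -1.10 to -0.80. With at least 4 markers there were 0. The cause of the drop was not tested.

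The rest of this list lay lower with weaker support. Cd9 was at 460, 250 and 444 CPM in hashtags A0301-A0303, against 670, 858 and 891 CPM in hashtags A0308-A0310, with an edgeR adjusted p of 0.0965. The fatty acid transporter gene Cd36 was at 3451, 2190 and 3182 CPM in hashtags A0301-A0303, against 5083, 6333 and 7173 CPM in hashtags A0308-A0310 (edgeR adjusted p = 0.0541). Gpnmb, at 1354, 439 and 855 CPM in hashtags A0301-A0303 and 1348, 2309 and 3799.8 CPM in hashtags A0308-A0310, overlapped by a single pair of hashtags, and Spp1, the osteopontin gene, overlapped at 275, 233 and 102 CPM in hashtags A0301-A0303 and 189, 454 and 493 CPM in hashtags A0308-A0310. Without mixed-hashtag cells, 10 of the 20 were called lower, against 1.6% over all genes, and the list median was -1.58. Cd9 then had a log2 fold change of -2.07 (edgeR adjusted p = 0.0218), Cd36 one of -1.74 (0.0226), and Trem2 one of -1.85 (0.00683). With at least 4 of the 6 markers, Trem2 was at -0.78 (edgeR adjusted p = 0.204), and without macrophages that held a dendritic cell gene at -0.67 (0.557).

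Lysosome genes were lower as a list, with exceptions. The list shares members with the lipid-associated list. Ctsb, Ctsl, Cd63 and Atp6v0d2 count among the called genes of both, so the 2 lists are not separate results. Of 34 tested, 7 were called lower and 1 higher, the median log2 fold change was -0.52, and 26 lay lower without overlap. Among all genes tested, 13.7% lay lower without overlap, 0.486% were called lower and 1.84% were called higher. Ctsl, the protease cathepsin L, was at 1281, 645 and 973 CPM in hashtags A0301-A0303, against 2255, 2751 and 3644 CPM in hashtags A0308-A0310 (-1.56 ± 0.29, edgeR adjusted p = 0.042). Ctsb, cathepsin B, was at 5167, 4143 and 5802 CPM in hashtags A0301-A0303, against 8794, 10342 and 9510 CPM in hashtags A0308-A0310 (-0.89 ± 0.15, edgeR adjusted p = 0.0351). Atp6v1a, another pump subunit, was at 341, 320 and 311.01 CPM in hashtags A0301-A0303, against 538, 628 and 712 CPM in hashtags A0308-A0310 (-0.93 ± 0.14, edgeR adjusted p = 0.025). Tfeb, which encodes a transcription factor of lysosome genes, was at 18.2, 24.7 and 20.3 CPM in hashtags A0301-A0303, against 44.9, 41.4 and 45.9 CPM in hashtags A0308-A0310 (-1.04 ± 0.20, edgeR adjusted p = 0.0472), and missed the threshold without mixed-hashtag cells (-0.66, 0.143). Cd68, a lysosomal membrane glycoprotein, was at 1184, 968 and 1050 CPM in hashtags A0301-A0303, against 1680, 2002 and 1607 CPM in hashtags A0308-A0310. The exception was Ctsh, cathepsin H, at 423, 485 and 542 CPM in hashtags A0301-A0303, against 285, 253 and 287 CPM in hashtags A0308-A0310 (0.84 ± 0.14, edgeR adjusted p = 0.0335). Without mixed-hashtag cells 10 were called lower and 1 higher, with a median of -0.78, against 1.6% lower and 2.79% higher over all genes. Leaving out 1 hashtag gave 0 to 2 lower calls on this list, and with at least 4 markers there were 0 of 34, with a median of -0.39. With at least 4 markers Ctsl was at -1.28 (edgeR adjusted p = 0.18).

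**Figure D3:**
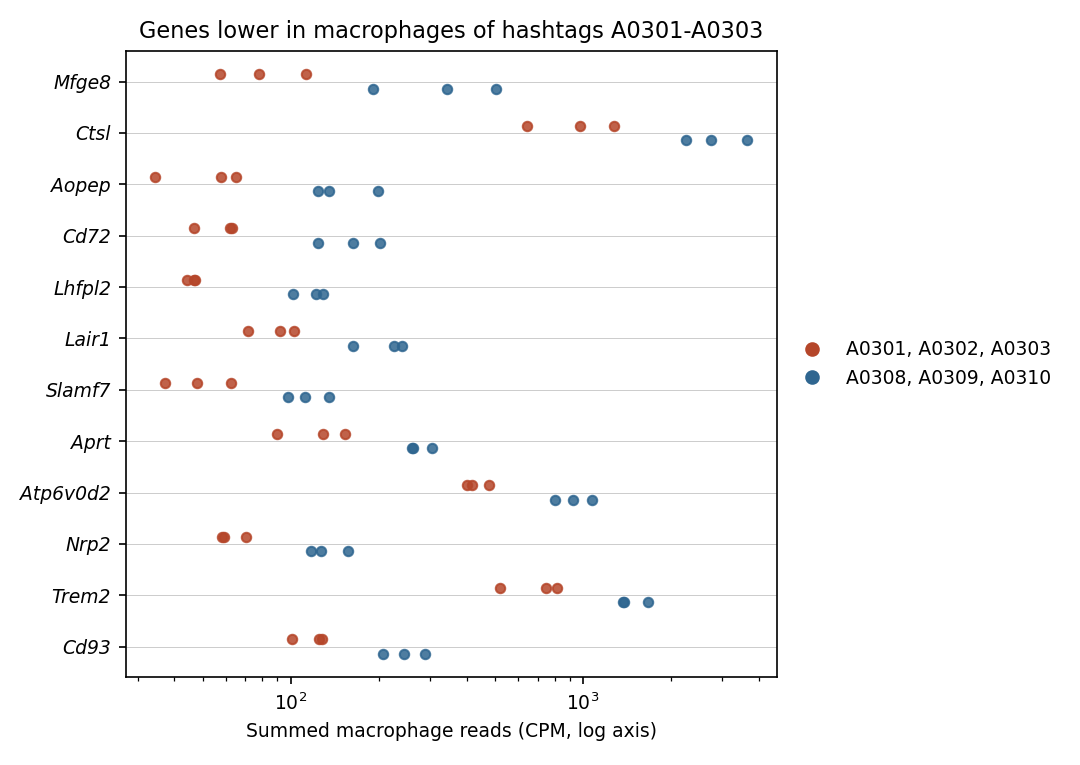
Summed macrophage reads of the 12 genes with the lowest fold change in hashtags A0301-A0303 among called genes with at least 100 CPM in hashtags A0308-A0310 (CPM, logarithmic horizontal axis), with 1 point per hashtag, red for A0301, A0302 and A0303 and blue for A0308, A0309 and A0310. Red points lie to the left of blue ones for each of the 12 genes, as for Trem2 at 519 to 817 CPM against 1376 to 1673 CPM.

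Tfeb and its relatives bind the letters CACGTG, most often inside TCACGTGA, near the start of lysosome genes. The promoter windows of the lysosome genes called lower, 250 bases before to 50 after the start in RefSeq's GRCm38.p6 annotation, were searched on both strands; 5 of the 7 had an entry and 2 of them, Ctsl and Atp6v1a, held CACGTG. Both are shown because they are the called lysosome genes with a match, on the minus strand at chr13:64370471-64370770 for Ctsl and chr16:44139210-44139509 for Atp6v1a, with CACGTG in capitals.
Ctsl: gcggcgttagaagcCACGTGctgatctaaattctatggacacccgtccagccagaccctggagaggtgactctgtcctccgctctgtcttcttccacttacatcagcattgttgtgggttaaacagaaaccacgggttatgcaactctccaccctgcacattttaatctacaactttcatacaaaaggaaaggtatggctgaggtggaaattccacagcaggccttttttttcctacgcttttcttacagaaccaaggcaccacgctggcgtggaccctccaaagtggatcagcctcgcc
Atp6v1a: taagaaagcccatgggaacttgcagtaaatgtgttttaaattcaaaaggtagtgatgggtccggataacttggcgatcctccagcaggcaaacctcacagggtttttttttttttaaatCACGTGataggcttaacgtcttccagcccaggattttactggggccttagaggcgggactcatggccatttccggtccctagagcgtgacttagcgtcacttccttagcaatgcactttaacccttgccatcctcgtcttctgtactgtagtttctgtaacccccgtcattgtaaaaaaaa
The match began 236 bases before the start in Ctsl and 131 bases before it in Atp6v1a, where the letters around it also spell TCACGTGA. CACGTG was present for 8 of 27 lysosome list genes with an entry (29.6%) and for 960 of 7824 tested genes (12.3%). It was present for 8 of 44 genes called lower (18.2%) and for 12 of 135 genes called higher (8.89%). TCACGTG was found for 25.9% of the lysosome list, 7.44% of tested genes, 6.82% of those called lower and 4.44% of those called higher, and TCACGTGA for 14.8%, 2.403%, 2.27% and 0.741% of the same sets. The 3 searches overlap, since the shorter letters lie inside the longer ones. A match describes letters in this window and not a bound site.

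Other lipid genes gave few calls but lay lower by their medians. The share called lower over all genes was 0.486%, and 1.6% without mixed-hashtag cells. Of 26 genes of fatty acid uptake, storage and oxidation, Mgll, which encodes the lipase that ends triglyceride breakdown, was the 1 called, at 10.5, 10.8 and 11.4 CPM in hashtags A0301-A0303, against 46.8, 43.2 and 23.6 CPM in hashtags A0308-A0310 (-1.75 ± 0.30, edgeR adjusted p = 0.0367). On this list 8 genes lay lower and 2 higher without overlap, the median was -0.28, DESeq2 called 5 lower and 1 higher, and without mixed-hashtag cells 5 of 25 were called lower. Among all genes tested, 13.7% lay lower and 11.5% higher without overlap. Lpl, lipoprotein lipase, was at 6370, 2492 and 3671 CPM in hashtags A0301-A0303, against 7846, 8326 and 6540 CPM in hashtags A0308-A0310, with an edgeR adjusted p of 0.234. Of 15 cholesterol efflux and lipoprotein genes, the scavenger receptor gene Msr1 was called lower, at 126, 94.2 and 110 CPM in hashtags A0301-A0303, against 209, 214 and 200 CPM in hashtags A0308-A0310. That list had a median of -0.53, with 8 lower and 0 higher without overlap and 2 lower by DESeq2. Apoe overlapped, at 3352, 4496 and 5962 CPM in hashtags A0301-A0303 and 5896, 6126 and 3054 CPM in hashtags A0308-A0310. Of 22 sterol and fatty acid synthesis genes 0 were called by edgeR; 1 was higher and 1 lower at an unadjusted p under 0.05, as many as DESeq2 called.

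Among called genes without overlap that reached 100 CPM and a read in 10% of macrophages in hashtags A0308-A0310, the 12 with the lowest fold change were named. Mfge8, a bridge between dying cells and phagocytes, was at 113, 57.1 and 78.1 CPM in hashtags A0301-A0303, against 191, 503 and 343 CPM in hashtags A0308-A0310 (-2.04 ± 0.39, edgeR adjusted p = 0.0472). Cd72, an inhibitory receptor of B cells and myeloid cells, was at 61.9, 46.6 and 62.7 CPM in hashtags A0301-A0303, against 203, 164 and 124 CPM in hashtags A0308-A0310 (-1.48 ± 0.21, edgeR adjusted p = 0.0221). Lair1, an inhibitory collagen receptor, was at 92.0, 103 and 71.7 CPM in hashtags A0301-A0303, against 240, 225 and 163 CPM in hashtags A0308-A0310. Slamf7, Aopep, Aprt, Lhfpl2, Nrp2 and Cd93 had log2 fold changes of -1.51 to -1.03, and Ctsl, Atp6v0d2 and Trem2 completed these 12. Of 16 genes of efferocytosis, the clearance of dying cells, Mfge8 and Msr1 were called lower and Timd4 higher. The shares called over all genes were 0.486% lower and 1.84% higher.

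**Figure D4:**
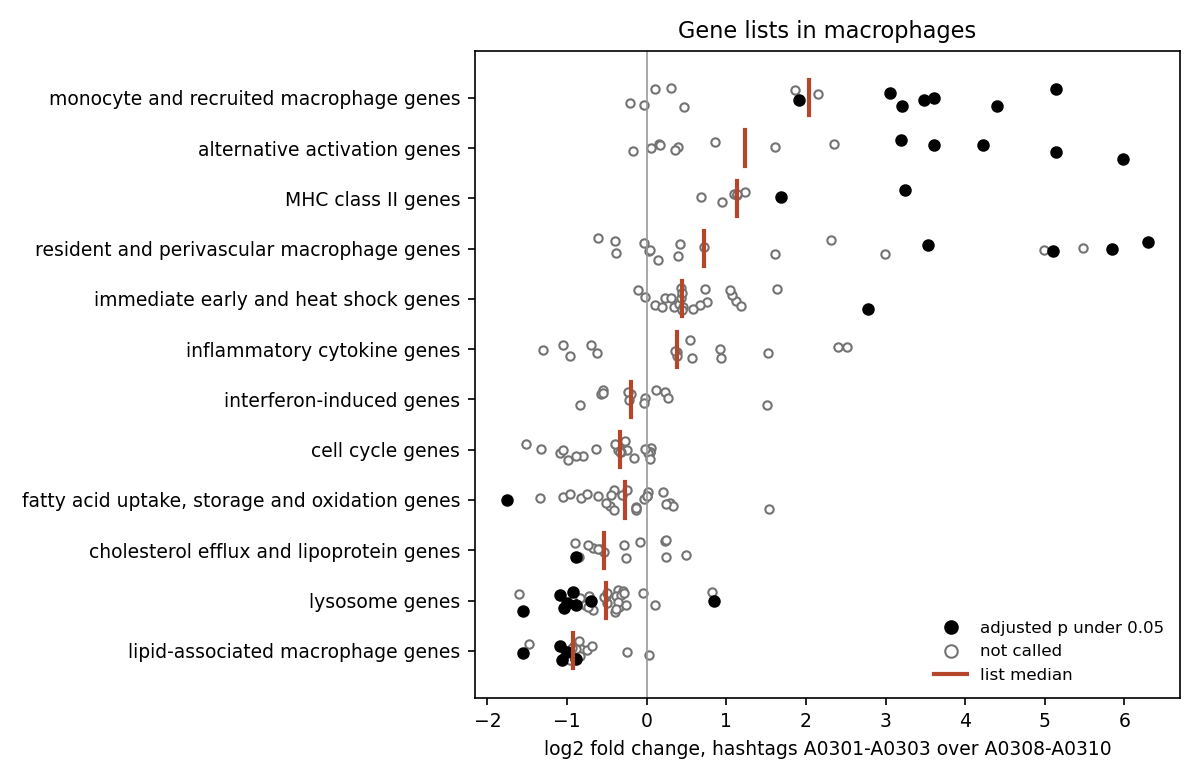
Log2 fold change of hashtags A0301-A0303 over A0308-A0310 (horizontal axis) for each tested member of 12 gene lists; filled points have an edgeR adjusted p under 0.05, open points do not, and red bars are list medians. The monocyte list has the highest median, 2.03, and the lipid-associated macrophage list the lowest, -0.92, while the resident list reaches from below 0 to above 6.

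The other lists gave few calls, with 1.84% called higher and 0.486% lower over all genes. Of 23 immediate early and heat shock genes, which tissue digestion induces, Hspb1 was called higher. On this list 9 lay higher without overlap, 0 lay lower, and the median log2 fold change was 0.45. Among all genes tested, 11.5% lay higher and 13.7% lower without overlap. Of 22 cell cycle genes 0 were called by edgeR, with a median of -0.33, but 7 were lower at an unadjusted edgeR p under 0.05 and DESeq2 called 3 lower. Over all 10281 genes 767 were lower at that p, and DESeq2 called 344 lower. Of 23 glycolysis and hypoxia genes Hif1a was higher, at 131, 126 and 115 CPM in hashtags A0301-A0303, against 50.4, 43.0 and 41.7 CPM in hashtags A0308-A0310 (1.49 ± 0.13, edgeR adjusted p = 0.00357). Of 13 unfolded protein response genes Herpud1 was higher, and of 17 C-type lectin and Fc receptor genes Fcgr2b, the inhibitory Fc receptor, and Mgl2 were higher. Of 18 other lineage genes the endotoxin co-receptor gene Cd14 was higher and Cd68 lower. No call was made among 18 Nrf2 and antioxidant genes, 12 iron and haem genes, 15 mitochondrially encoded genes, 4 nuclear-retained RNAs and the 6 markers of the rule; the medians of these lists ran from -0.40 to 0.32. Of the 55 genes tested on these 5 lists, 5 were higher and 4 lower at an unadjusted edgeR p under 0.05, and DESeq2 called 4 higher and 4 lower. These unadjusted counts lay near the share over all 10281 genes, of which 960 were higher and 767 lower. DESeq2 called 565 of all genes higher and 344 lower.

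RNA of other cell types was present in both sets. The 7 fibroblast markers summed to 900, 937 and 307.8 CPM in hashtags A0301-A0303, against 319, 254 and 249 CPM in hashtags A0308-A0310, and without mixed-hashtag cells to 300.1, 440 and 214 CPM in hashtags A0301-A0303, against 317, 243 and 252 CPM in hashtags A0308-A0310. The 8 endothelial markers ran the other way, at 22.2, 21.6 and 31.5 CPM in hashtags A0301-A0303, against 61.9, 43.5 and 40.98 CPM in hashtags A0308-A0310, and at 28.4 to 29.7 CPM against 37.9 to 57.5 CPM in the same sets without mixed-hashtag cells. The 5 mesothelial markers summed to 149, 274 and 23.3 CPM in hashtags A0301-A0303, against 8.75, 4.68 and 0.963 CPM in hashtags A0308-A0310, and to 0 in all 3 hashtags of A0301-A0303 without mixed cells. Some called genes lost the call there. Igfbp6, which encodes a secreted growth factor binding protein, had a log2 fold change of 4.18 (edgeR adjusted p = 0.0129) with all macrophages and of 0.11 (0.974) without mixed cells. Hspb1 was at 2.78 (0.00216) with all macrophages and 0.96 (0.344) without, and C3 at 1.68 (0.0439) and 0.36 (0.441). Igfbp6 was named here after its values were seen. B and plasma cell markers summed to 304.3 CPM in hashtag A0303, where Jchain alone held 299.6 CPM and was read in 0.588% of the macrophages of the set, and to 0.568 and 8.10 CPM in hashtags A0301 and A0302, against 3.39 to 18.1 CPM in hashtags A0308-A0310. T cell markers summed to 36.8 to 46.9 CPM in hashtags A0301-A0303 and 5.10 to 47.6 CPM in hashtags A0308-A0310. The 4 erythroid markers were at 0 in all hashtags but A0310, where they summed to 486 CPM. Each was read in 0.0559% of the macrophages of hashtags A0308-A0310, and without mixed-hashtag cells the sum in hashtag A0310 was 0.

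**Figure D5:**
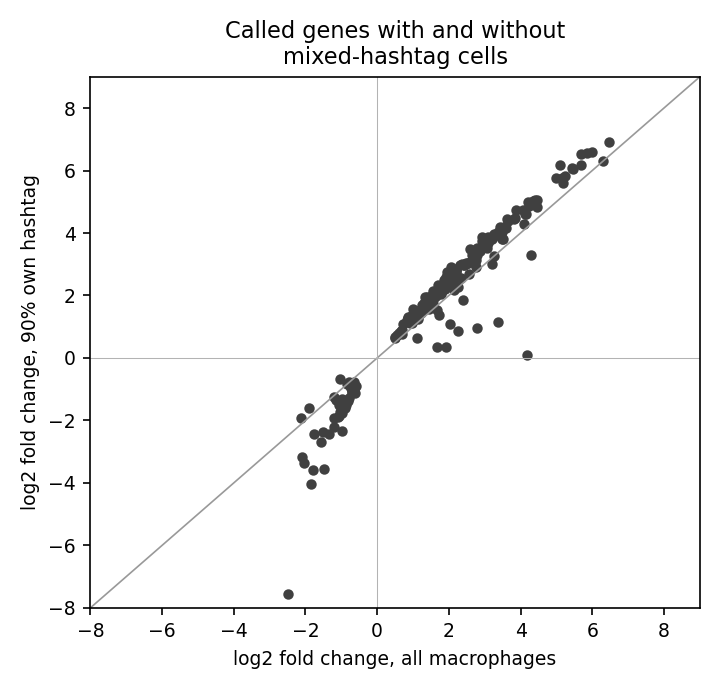
Log2 fold change of hashtags A0301-A0303 over A0308-A0310 for the 222 called genes measured both ways, with all macrophages (horizontal axis) and with macrophages that had at least 90% of hashtag counts from their own hashtag (vertical axis); the diagonal marks equal values. All 222 keep their sign and 203 lie farther from 0 without mixed-hashtag cells, while a few genes higher in hashtags A0301-A0303, Igfbp6 among them, drop to near 0.

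Macrophages of hashtags A0304, A0305 and A0307, which were outside the comparison, lay between the sets for several of these genes. Retnla was at 5105 to 5298 CPM in them, Fn1 at 793 to 968 CPM, Mgl2 at 140 to 159 CPM and Ccr2 at 151 to 166 CPM, each below every hashtag of A0301-A0303 and above every hashtag of A0308-A0310. Atp6v0d2, at 1087 to 1122 CPM, lay above every hashtag of A0308-A0310, and Ctsl, at 3548 to 4035 CPM, lay above hashtags A0308 and A0309 and on both sides of hashtag A0310. Trem2, at 1147 to 1284 CPM, again lay between the sets.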

How the data were processed

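The authors deposited a table of whole-number counts per gene and cell, whose cell names begin with their hashtag call, and a table of hashtag counts per barcode. They are used as reads, because nothing says that molecules were collapsed. Among 18090 genes with a read in more than 100 cells, 389 lack every value below 5. A 0 of theirs may hide reads up to the lowest value of the gene, which for Retnla was far above 5. The build was GRCm38 and the tools were Bowtie2 2.4.2, cutadapt 2.10 and R 3.6.3 among others, per the submitters' processing notes. How cells and hashtags were called is not given in the sources used here. In all, 29417 genes and 12040 cells were listed, and 290 cells called as doublets or without a hashtag were not used; no further doublet caller was run.

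Macrophage reads were summed per hashtag. Genes with at least 5 CPM in 3 of the 6 hashtags and a read in at least 1% of macrophages were tested. The test was edgeR 4.0.16 (R 4.3.3) with TMM factors and a robust quasi-likelihood fit. A gene can pass this filter through 1 set alone, and its direction is then fixed by the filter. The fit was also run on simulated counts with known changes, drawn with the same spread in both sets. The real sets differed in spread, so that run cannot vouch for the calls. CPM values here are scaled to the total reads of the summed macrophages, without TMM factors. The SE of a log2 fold change is its absolute value divided by the square root of the quasi-likelihood F statistic. It thus restates the test and is not a separate estimate of spread. DESeq2 1.42.0 was an alternative. Shares were compared with exact permutation tests. Gene names matched GENCODE M21 for 28350 of the table's genes, and figures used matplotlib 3.10.9. The unit is the hashtag, because no source maps hashtags to diets or animals.

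The members, gene lists and tests were chosen with earlier results of these data known, and 27 gene lists were read. Named genes were the 12 called genes with the largest change in each direction, with at least 100 CPM in the higher set, a read in 10% of its macrophages and no overlap, the leading members of each list, the 6 markers, and Clec4e, Tgfb1 and Mmp12; genes without a proper name were only counted. Further list members are given to show a list's spread.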

Additional observations from a re-analysis of the deposited data

Results flagged for a closer look

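Counts of hashtags that no cell was called for, A0306 and A0311 to A0315, were present in the macrophages of the 6 hashtags: 1367 of 6076812 hashtag counts (0.0225%), above the 3 counts that a total of 0 would allow. These hashtags enter no comparison.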

How the results depend on the processing

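No paired analysis was possible because no source used here pairs the hashtags of the 2 sets or ties them to animals. The alternatives on mixed hashtags, depth of 20000 to 80000 reads and dendritic cell genes were chosen after seeing the data. No called named gene changed direction under any alternative run. Against 189 genes higher and 50 lower in macrophages of hashtags A0301-A0303, DESeq2 called 565 and 344, a fit of all 9 hashtags 525 and 312, macrophages of 20000 to 80000 reads 55 and 23, those with at least 4 markers 43 and 0, and those without dendritic cell genes 18 and 1. Higher genes numbered 121 with a read in 10% of macrophages and 112 with no filter on low values. Lower genes numbered 97 without the 5% deepest macrophages, 33 at no more than 10% mitochondrial reads, 163 without mixed-hashtag cells and 208 when these were also thinned to 5000 reads. Leaving out 1 hashtag gave 26 to 160 higher genes and 0 to 54 lower genes, the fewest without hashtag A0309. Higher genes numbered 84 without hashtag A0302, 109 without A0303, 61 without A0308 and 88 without A0310, and lower genes 10, 14, 5 and 15. Of the 46 called named genes, 14 stayed called with at least 4 markers, 20 of 46 in the depth window, 34 of 45 without mixed-hashtag cells and 9 of 44 without dendritic cell genes. The share difference of -37.4 percentage points was -46.93 without mixed-hashtag cells. The cause of these shifts was not tested.

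Sign changes occurred in 13 named genes, none of them called. With at least 4 markers the log2 fold change was 0.17 for Apoe, 0.15 for C1qb and 0.004 for Csf1r. Without dendritic cell genes it was 0.18 for Apoe, -0.005 for C1qa and -0.39 for Irf1. In the depth window it was -0.10 for C1qa, -0.13 for Fos, 0.26 for Hspa5, -0.12 for Mrc1, 0.40 for Tuba1b and -0.33 for mt-Co1. With no filter it was -0.15 for C1qa, -0.048 for Fos, -0.029 for Tgfb1 and -0.11 for mt-Co1. Without mixed-hashtag cells it was 0.16 for Csf1r, 0.081 for Hspa5 and -0.024 for mt-Co1, and thinned as well 0.06, 0.036 and -0.043. It was -0.027 at 10% mitochondrial reads and -0.13 at 100 CPM of other-type markers for C1qa, and 0.013 with no such limit for Csf1r. Hspa5 was at 0.019 without the deepest macrophages and 0.067 thinned, and Tuba1b at 0.063 thinned and 0.031 with gaps filled. Leaving out 1 hashtag gave ranges of -0.35 to 0.11 for Apoe, -0.32 to 0.21 for C1qa, -0.34 to 0.05 for C1qb, -0.12 to 0.009 for Csf1r, -0.025 to 0.21 for Fos, -0.21 to 0.071 for Hspa5, -0.67 to 0.19 for Ifi27l2a, -0.10 to 0.98 for Irf1, -1.40 to 0.60 for Mmp12, -0.15 to 0.10 for Tuba1b and -0.02 to 0.11 for mt-Co1. Depth limits hashtags A0301-A0303 most, with 51 to 67 macrophages each.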
